A study of Mus musculus with 6 samples.

Results

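The proteasome genes of bone marrow long-lived plasma cells were described in 3 libraries from young and 3 from old C57BL/6J mice. Members were the rows whose symbol starts with Psm, a letter from a to g and a number, which gave 49 of the 13642 genes in the table. Of these, 48 encode proteasome subunits, activators, an inhibitor or assembly chaperones. The remaining one, Psmc3ip, is a meiotic recombination factor whose symbol derives from a binding partner. The thymus subunit gene Psmb11 fits the symbol pattern but was not among the members found. Values are FPKM, fragments scaled by gene length and by the library's mapped fragments. Comparing different genes within a library therefore depends on the gene lengths used, which are not given in the sources used here.

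The proteasome is the main protease of the cytosol and nucleus and degrades proteins tagged with ubiquitin. Its barrel-shaped core is built from rings of alpha and beta subunits, and 3 of the beta subunits cut peptide bonds. Under interferon, and at rest in many blood cells, these 3 (Psmb5, Psmb6 and Psmb7) are replaced by Psmb8, Psmb9 and Psmb10, which gives the immunoproteasome and changes the peptides offered on MHC class I. A regulatory cap recognises, unfolds and feeds in substrates, and other activators can take its place. Plasma cells secrete antibody in bulk, send misfolded chains to the proteasome, and are known for their sensitivity to proteasome inhibitors.

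Young mice were 2 to 3 months old, female, and bought from the Jackson Laboratory or bred at UCLA. Old mice were 17 to 19 months old, male, and supplied by the aged colony of the National Institute on Aging. Age, sex and supplier therefore changed together and cannot be told apart. Both groups' cells were CD138 high in the sort and lacked B220, IgD, T cell receptors, CD11b and Gr-1, and libraries were made from 5 ng of RNA. The series text speaks of 3 independent groups of mice per age, without saying how many animals a library holds, so a p-value reflects only how these libraries vary, which may be technical.

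All 8 plasma cell markers examined were above 0 in every library. Their summed level was 8956 FPKM in old replicate 3 and 19745 to 23103 in the other libraries. Old replicate 3 also had the highest summed level of 5 of the 8 other marker lists, among them 796 FPKM for monocyte and macrophage genes against 87.7 to 246 in young and 208 and 272 in the other old libraries. For neutrophil genes the sums were 355 to 562 in young and 259 to 1252 in old libraries. Every old value was above every young one for Lyz2, Elane and Ctsg. Lyz2 was at 26.7, 97.1 and 99.1 FPKM (young) against 179, 196 and 516 (old). Elane was at 10.2, 0.0475 and 0.0536 against 19.7, 19.2 and 220, and Ctsg at 0.538, 0.302 and 0.341 against 0.569, 51.0 and 282. The other tested genes of both lists overlapped. Log2 changes, old minus young, were positive in 7 and negative in 2 neutrophil genes, and in 5 and 1 monocyte and macrophage genes. Many of these cells also use proteasome genes, and their part in the values below was not tested. Approximate depths, from the size of the smallest steps in the table, were 22.7 M to 25.6 M reads in young and 27.1 M to 28.4 M in old libraries, and genes above 0 numbered 8934 to 10664 and 11310 to 12049. Young replicate 3 was the shallowest and had the fewest genes above 0.

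Proteasome genes were present in every library at mostly middle levels. The 48 genes other than Psmc3ip summed to 1757, 1940 and 1905 FPKM (young) against 1876, 2325 and 1974 (old). That was 0.608% ± 0.0214 of all FPKM for young and 0.665% ± 0.0523 for old (SD, n = 3), and the groups overlapped. In bulk samples such as these, fewer cells of a type and less RNA per cell cannot be told apart. Of the 49 members, 44 were above 0 in every library and 41 were at least 1 FPKM in every library. A mean of at least 1 FPKM over the 6 libraries, the filter for testing, was reached by 47 members and by 10687 genes in all, and 35 members had a mean of at least 20. Psmg3 and Psma8 did not pass. Psma8, the alpha subunit of germ cells, was listed at 0 in 5 libraries and at 3.87 in old replicate 3.

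**Figure D1:**
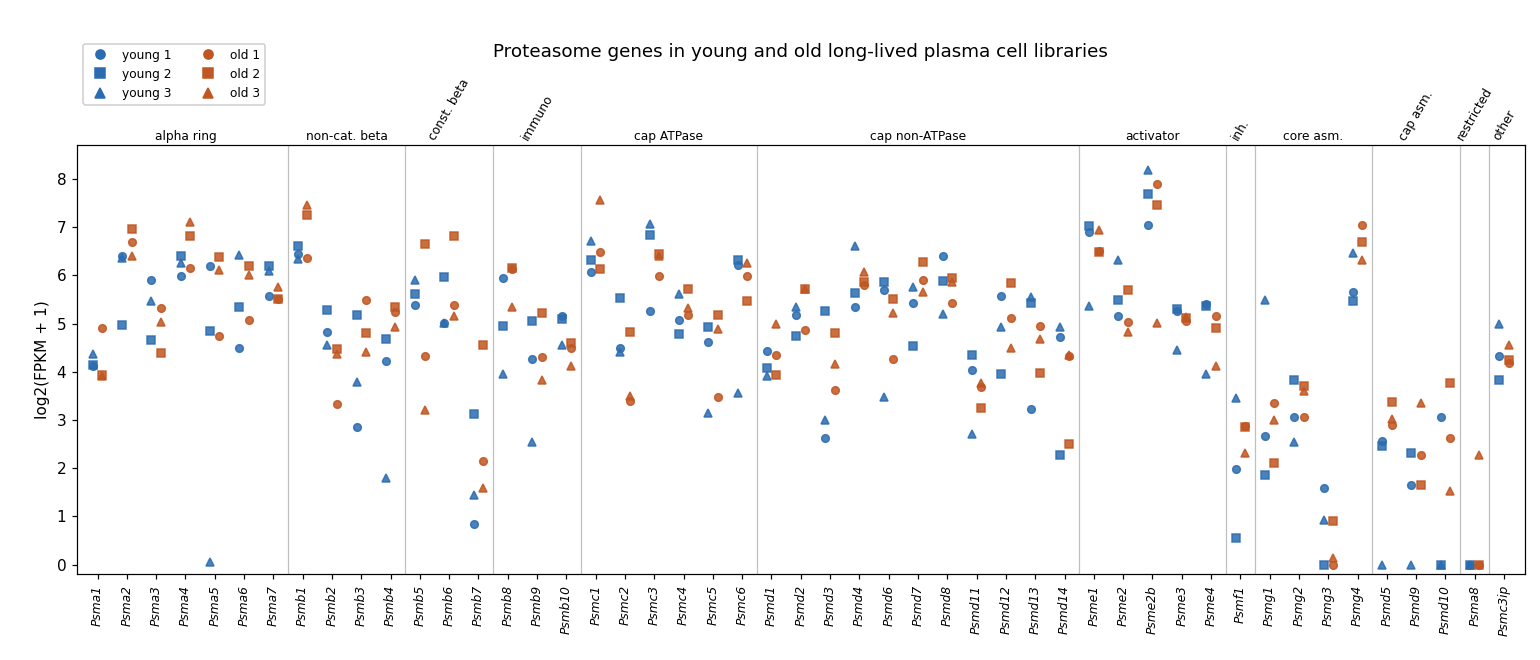
Log2(FPKM + 1) of the 49 members in each library, grouped by role (blue young, orange old, one marker shape per replicate number, which is not taken to pair libraries). Most members lie between 3 and 7 on this scale in both groups, and Psmb7, Psmf1, Psmg3, Psma8 and the cap chaperones Psmd5, Psmd9 and Psmd10 lie lowest.

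No member was called between old and young cells. Differences were tested with limma on log2(FPKM + 1), as old minus young, with Benjamini-Hochberg adjustment over the 10687 genes. At an adjusted p under 0.05 limma called 0 of 47 members, against a background of 0% of all genes, and the lowest adjusted p of a member was 0.839. At an unadjusted limma p under 0.05 there was 1 member, Psmb4, or 2.13%, against a background of 5.91% (4.66% with old higher and 1.25% with old lower). The groups did not overlap for 4 members, 8.51% against 12.2% of all tested genes: Psma2, Psmb4 and Psmd5 with old above young (6.38% against 8.78%) and Psmb2 with old below young (2.13% against 3.42%). Both shares of members lay under the background, but they rest on only 1 and 4 members.

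By sign alone, 30 of 47 members had a positive log2 change, or 63.8% against 61.3% of all tested genes, and 26 (55.3%) lay above the median of all tested genes, against 50%. The median change was 0.29 for members and 0.23 for all tested genes. Restricted to a mean of at least 20 FPKM, it was 0.25 for 35 members and 0.018 for 2835 genes, with 21 members (60%) against 51.4% of genes positive. Among these 35 members, 1 had an unadjusted limma p under 0.05 (2.86% against 6.07%, or 3.21% with old higher). Old lay above young in 2 of the 35 (5.71% against 4.66%) and below in 1 (2.86% against 5.47%). After quantile normalization the member median was 0.28 against 0.01 for all genes. After median-ratio scaling these medians were 0.19 and 0.14. Without old replicate 2 the member median was 0.11, against 0.24 for all genes.

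These comparisons had little precision. The 95% interval of the log2 change reached a doubling or a halving in 45 of 47 members, and stayed within both only for Psmd8 and Psmd4. Its half-width ran from 0.78 for Psma7 to 2.86 for Psma5, with a median of 1.18. Members therefore cannot be called equal in the 2 groups. Within the groups, the highest of the 3 young libraries exceeded the lowest more than 2-fold in 31 of the 44 members above 0 in all young libraries, and in the old libraries in 24 of 47. At a limit of 5-fold the numbers were 12 and 4. The median within-group SD on the log2 scale was 0.67 for members of at least 20 FPKM and 0.56 for all genes at that level.

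**Figure D2:**
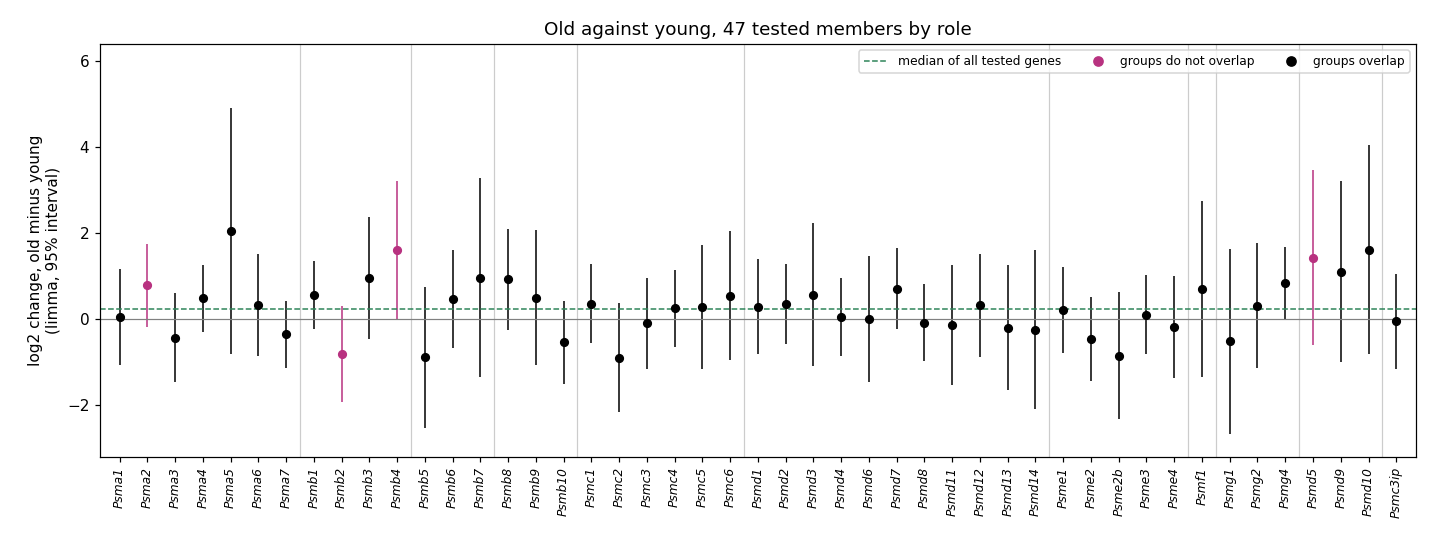
Log2 change, old minus young, with its 95% interval from limma for the 47 tested members, ordered by role with grey lines between roles. The intervals of 46 members hold 0, and the 4 members whose groups do not overlap (Psma2, Psmb2, Psmb4 and Psmd5, in magenta) lie on both sides of 0.

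The alpha ring, which forms the gate and the docking face of the core, holds 1 copy of each of 7 subunits per ring. Their FPKM values, which depend on the gene lengths used, were far apart. By mean over the 6 libraries they ran from 18.4 FPKM for Psma1 to 89.99 for Psma4. Psma4 was at 62.0, 83.8 and 75.4 FPKM (young) against 69.8, 112 and 137 (old). For Psma1 the values were 16.4, 16.5 and 19.7 against 29.2, 14.3 and 13.97. Psma4 was thus above Psma1 in every library, and neither gene separated the age groups. In approximate reads Psma1 was above Psma6 in young replicate 1 (1194 against 658) and old replicate 1 (2340 against 1087), and below it elsewhere.

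Within a library the highest alpha subunit exceeded the lowest 3.98 to 9.80-fold in 5 libraries. The exception was young replicate 3, where Psma5 was at 0.0364 FPKM, about 1 read, while Psma6 was at 84.4. In the other libraries Psma5 was at 72.7 and 27.6 (young) and 25.9, 81.8 and 68.1 (old). Its log2 change of 2.05 ± 1.28 (SE), the largest of any member, had a limma adjusted p = 0.848, and was 0.22 without this library. The gene also has 2 processed pseudogenes that match its transcript at 97.5% and 98.6%, and neither was in the table.

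Psma2 was the alpha subunit of smallest p. It stood at 83.0, 30.3 and 80.6 FPKM (young) against 103, 123 and 83.7 (old). Old replicate 3 lay just above young replicate 1, so the groups were separated by less than 1 FPKM. The log2 change was 0.78 ± 0.43 (SE; limma unadjusted p = 0.09995, adjusted p = 0.841), and 0.31 without young replicate 2. Of the 7 alpha genes 5 had a positive and 2 a negative log2 change (Psma3, which has a processed pseudogene identical over 665 bases, at -0.43 and Psma7 at -0.36), with a median of 0.33. Their sum was 361, 294 and 371 FPKM (young) against 343, 468 and 451 (old), which overlap.

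**Figure D3:**
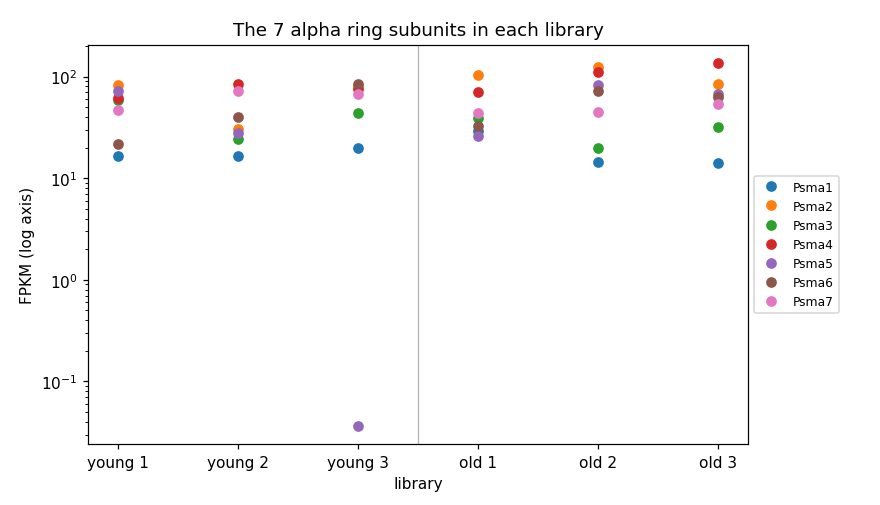
FPKM of the 7 alpha ring subunits in each library on a log axis. Psma5 falls to 0.0364 in young replicate 3, while all other points lie between 13.97 and 137.

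The 4 beta subunits without a cutting site held the smallest p and 2 separations in opposite directions. Psmb4 was at 17.6, 24.8 and 2.47 FPKM (young) against 36.6, 39.7 and 29.5 (old), so every old value was higher. The group means were 14.9 ± 11.4 and 35.3 ± 5.21 (SD, n = 3), a 2.36-fold difference. Its log2 change of 1.604 ± 0.72 (SE) had a limma unadjusted p = 0.0494 and an adjusted p = 0.839. Without young replicate 3, where it was lowest, the log2 change was 0.72 (limma unadjusted p = 0.118).

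Psmb2 went the other way, at 27.3, 37.9 and 22.4 FPKM (young) against 9.10, 21.3 and 19.6 (old). Young replicate 3 and old replicate 2 differed by about 1 FPKM. The young mean was 1.75 times the old one, and the log2 change was -0.82 ± 0.50 (SE; limma unadjusted p = 0.132, adjusted p = 0.844), and -0.46 without old replicate 1. Psmb1, the most abundant of the core genes at a mean of 112 FPKM, was at 86.4, 96.9 and 79.7 against 81.4, 152 and 176. Old replicates 2 and 3 were above all young values and old replicate 1 was not. Psmb3 was at 6.22, 35.3 and 12.9 against 44.0, 27.0 and 20.2, with overlap.

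Constitutive and immune forms of the 3 catalytic subunits were transcribed side by side in every library. Psmb5, which carries the chymotrypsin-like site, was at 40.6, 47.6 and 59.0 FPKM (young) against 19.2, 99.8 and 8.26 (old). Its immune counterpart Psmb8 (chromosome 17, 34197721 to 34201454, plus strand, GRCm38) was at 60.7, 29.9 and 14.4 (young) against 68.7, 69.9 and 39.7 (old). Old values of Psmb5 were spread 12.1-fold and surrounded the young ones. For Psmb8, 2 of 3 old values were above all young values. Its exons share 498 bases with Gm20496 on the opposite strand.

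Psmb8 had a log2 change of 0.92 ± 0.53 (SE; 95% interval -0.26 to 2.10; limma unadjusted p = 0.111, adjusted p = 0.844). Without young replicate 3 it was 0.42, and without young replicate 1 it was 1.42 (limma unadjusted p = 0.0206, adjusted p = 0.481). In the latter fit 969 of 10638 genes and 4 of 47 members had an unadjusted limma p under 0.05. Over all libraries it was 632 of 10687 genes and 1 of 47 members. For Psmb5 the log2 change was -0.90 ± 0.74 (SE; limma adjusted p = 0.854). Without old replicate 2 the change of Psmb5 was -1.86 (limma unadjusted p = 0.00867, adjusted p = 0.960), and without old replicate 3 it was -0.13. Without old replicate 2 the numbers at an unadjusted limma p under 0.05 were 455 of 10583 genes and 1 of 47 members. Psmb5 has a processed pseudogene, Gm3375, with 98.9% identity over 796 bases, which was not in the table.

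Psmb6, the caspase-like subunit, was at 31.1, 61.5 and 31.1 FPKM (young) against 40.6, 111 and 34.8 (old). Psmb9 (chromosome 17, 34181987 to 34187764, minus strand) was at 18.3, 32.2 and 4.82 against 18.7, 36.5 and 13.2. Both genes overlapped between the groups, with log2 changes of 0.46 ± 0.51 and 0.50 ± 0.70 (SE; limma adjusted p = 0.876 and 0.913). Psmb9 was below Psmb6 in FPKM in all 6 libraries, an order that depends on gene length. Merged exons span 3660 bases in Psmb9 and 1872 in Psmb6. In approximate reads Psmb9 was above Psmb6 in young replicates 1 (1650 against 1433) and 2 (3009 against 2942), and below it elsewhere. Exons of Psmb9 overlap those of Tap1 on the opposite strand by 212 bases, and the use of strand by the counter was not given in the sources used here.

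The trypsin-like pair was reversed in level. Psmb7 was the lowest core gene apart from Psma8, at 0.794, 7.76 and 1.71 FPKM (young) against 3.43, 22.5 and 2.01 (old), while Psmb10 (chromosome 8, 105935735 to 105938444, minus strand) was at 34.8, 33.4 and 22.5 against 21.4, 23.1 and 16.4. Psmb10 was above Psmb7 in FPKM in all 6 libraries, by 1.03-fold in old replicate 2 and by 4.30 to 43.8-fold elsewhere. In approximate reads Psmb10 was below Psmb7 in old replicate 2 (1116 against 2183) and above it elsewhere. Only old replicate 2 lay above the lowest young value of Psmb10, by less than 1 FPKM. Its log2 change was -0.54 ± 0.43 (SE; limma unadjusted p = 0.240, adjusted p = 0.854), opposite in sign to those of Psmb8 and Psmb9. Psmb7 shares 405 exonic bases with Nek6 on the opposite strand.

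As ratios within a library, the 3 pairs differed in level and in the sign of their mean difference. The log2 ratio of Psmb8 to Psmb5 (after adding 1 FPKM) was 0.57, -0.65 and -1.96 in young and 1.79, -0.51 and 2.13 in old libraries. For Psmb9 to Psmb6 it was -0.73, -0.91 and -2.47 against -1.08, -1.58 and -1.34. For Psmb10 to Psmb7 it was 4.32, 1.97 and 3.11 against 2.34, 0.04 and 2.53. All 3 ratios overlapped between the groups, and old minus young means were 1.82, 0.04 and -1.50 in that order.

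Summed over the 3 genes, immune subunits made up 61.1%, 45.0% and 31.2% of catalytic FPKM (young) against 63.2%, 35.7% and 60.5% (old). The means were 45.8% ± 14.96 and 53.1% ± 15.2 (SD, n = 3), a difference smaller than the spread within either group. On the log2 scale the summed ratio was 0.43 higher in old libraries, 0.94 higher without old replicate 2, and 1.45e-05 higher without young replicate 3. Old replicate 2, with the most Psmb5, Psmb6 and Psmb7, had the lowest immune share of the old libraries.

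**Figure D4:**
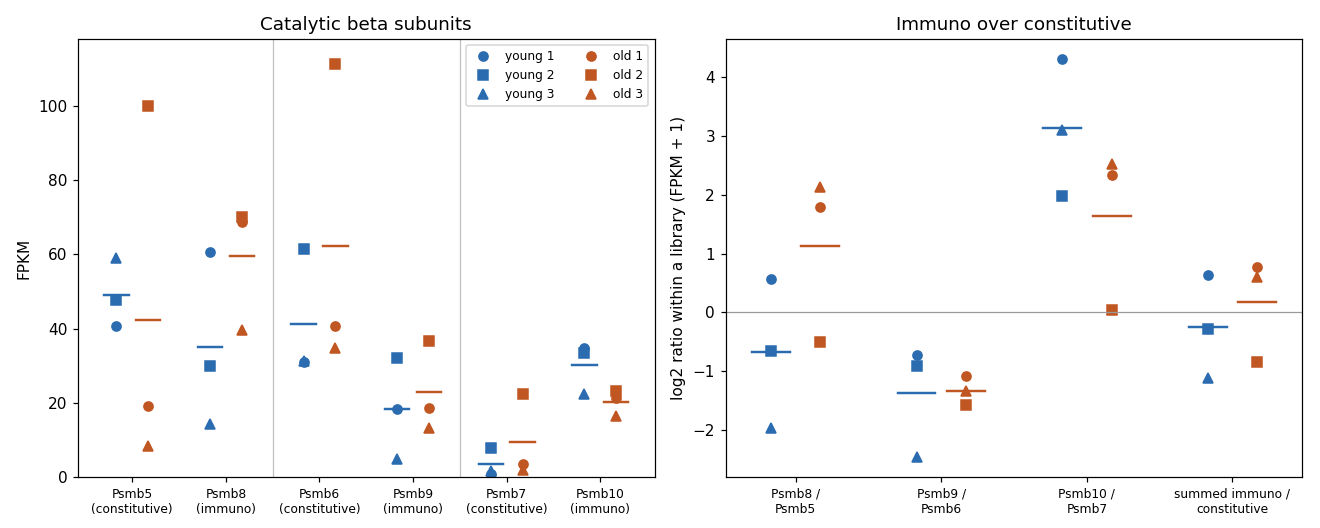
FPKM of the 6 catalytic subunits, each constitutive gene beside its immune counterpart (left), and log2 ratios of immune to constitutive within each library (right), where short lines mark group means. Groups overlap in every column, and Psmb10 over Psmb7 lies above 0 and Psmb9 over Psmb6 below 0 in all 6 libraries.

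Promoters of Psmb5, Psmb6 and Psmb10 are shown because the factor NFE2L1 is known to act on antioxidant response elements of proteasome genes when proteasome activity is low. Those of Psmb7, Psmb8 and Psmb9 are not shown, so Psmb10 is the only immune gene among them. Sequences are from RefSeq promoters on GRCm38.p6, 5′ to 3′ on the gene's strand, cut back where an annotated exon begins. Capitals mark matches to TGACNNNGC (antioxidant response element) or GGGCGG (GC box) on either strand.
Psmb5, chr14:54618023-54618245, minus strand: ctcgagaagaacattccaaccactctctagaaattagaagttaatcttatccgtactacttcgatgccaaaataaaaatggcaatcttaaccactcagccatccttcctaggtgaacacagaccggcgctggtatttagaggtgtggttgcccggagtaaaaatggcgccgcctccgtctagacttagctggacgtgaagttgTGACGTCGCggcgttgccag
Psmb6, chr11:70525107-70525356, plus strand: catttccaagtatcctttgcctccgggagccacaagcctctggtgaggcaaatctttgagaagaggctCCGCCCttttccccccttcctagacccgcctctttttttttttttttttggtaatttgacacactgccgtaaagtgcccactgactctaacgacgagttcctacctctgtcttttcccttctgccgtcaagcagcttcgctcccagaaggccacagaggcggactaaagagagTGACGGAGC
Psmb10, chr8:105938445-105938642, minus strand: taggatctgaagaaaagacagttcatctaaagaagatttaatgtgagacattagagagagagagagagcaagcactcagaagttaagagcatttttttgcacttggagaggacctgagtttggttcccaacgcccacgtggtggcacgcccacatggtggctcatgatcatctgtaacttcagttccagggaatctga

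In these windows Psmb5 and Psmb6 each held 1 match to the antioxidant response element, and Psmb10 held no match to the motifs given here. Over the full windows of 300 bases, TGACNNNGC was found in 6 of 41 member promoters (14.6%) against 12.5% of 27025 promoters. CCAAT was found in 14 (34.1% against 37.9%) and GGGCGG in 23 (56.1% against 35.9%). Interferon elements are not reported here. Both strands were searched and matches of different motifs may overlap. A match is a description of the letters and not a binding site.

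In the regulatory cap the groups overlapped throughout. Its 6 ATPases, which unfold substrates, summed to 254, 372 and 324 FPKM (young) against 268, 313 and 425 (old). For the 11 other cap subunits the sums were 373, 344 and 367 against 326, 416 and 386. Median log2 changes were 0.27 and 0.05, with 4 positive and 2 negative for the ATPases and 6 and 5 for the other subunits, and limma called 0 of 17.

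Among the ATPases Psmc1 was highest, at 65.7, 79.3 and 104 FPKM (young) against 88.7, 68.6 and 187 (old). Psmc2 was lowest, at 21.5, 44.9 and 20.1 against 9.51, 27.3 and 10.3. Old replicates 1 and 3 lay below every young value of Psmc2 and old replicate 2 did not. Its log2 change of -0.90 ± 0.57 (SE; limma unadjusted p = 0.147, adjusted p = 0.848) was the most negative of any member over all 6 libraries. It was -0.54 without young replicate 2 and -1.36 without old replicate 2. Psmc1, Psmc3, Psmc4, Psmc5 and Psmc6 had changes between -0.10 and 0.54.

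Of the non-ATPase subunits Psmd4, a ubiquitin receptor, was highest, at 39.5, 48.8 and 97.1 FPKM (young) against 54.6, 57.5 and 66.1 (old), with old values inside the young range. Psmd11 was lowest, at 15.5, 19.2 and 5.58 against 11.9, 8.44 and 12.7. Psmd14, which removes ubiquitin before degradation, was at 3.83 in young replicate 2 and 4.64 in old replicate 2, and between 19.0 and 29.4 in the other 4 libraries. Its low libraries therefore lay in both groups. Psmd7, its partner, had the smallest p of the cap, at 42.0, 22.1 and 52.8 against 58.8, 76.1 and 49.3 (log2 change 0.71 ± 0.42, SE; limma unadjusted p = 0.125, adjusted p = 0.844). The change of Psmd7 was 0.35 without young replicate 2 and 0.96 without young replicate 3 (limma unadjusted p = 0.0467, with no member called). In the latter fit 649 of 10709 genes and 2 of 47 members had an unadjusted limma p under 0.05.

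Activators open the core without ubiquitin, and 2 of the 5 activator genes in the table are near-identical. Psme1 (chromosome 14, 55578123 to 55581529, plus strand) and Psme2 (chromosome 14, 55587441 to 55591113, minus strand) encode the 2 subunits of the interferon-inducible activator ring and lie close together. Psme2b (chromosome 11, 48945354 to 48946190) is a copy whose transcript matches that of Psme2 at 99.4% over 794 bases. Values for this pair are uncertain.

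Psme1 was at 119, 128 and 40.3 FPKM (young) against 89.98, 88.1 and 121 (old), with overlap. For Psme2 the values were 34.7, 43.7 and 78.5 against 31.8, 50.6 and 27.5, and for Psme2b 132, 205 and 291 against 238, 175 and 31.0. Psme2b thus had the highest mean FPKM of any member, 179, and was above its parent gene in FPKM in all 6 libraries. Both orders depend on gene length, as merged exons span 837 bases in Psme2b and 1764 in Psme2. In approximate reads Psme2b was below Psme2 in old replicate 3 (719 against 1342) and above it elsewhere. Psmb1 was above Psme2b in approximate reads in every library. Psme2b took 77.6% to 88.2% of the pair's FPKM in 5 libraries and 53.0% in old replicate 3.

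Added together, Psme2 and Psme2b gave 166, 249 and 369 FPKM (young) against 270, 226 and 58.5 (old). Young replicate 3 was highest for this sum and lowest for Psme1, and old replicate 3 was lowest for the sum and highest of the old libraries for Psme1. The log2 change of Psme2b was -0.86 ± 0.66 (SE; limma unadjusted p = 0.225, adjusted p = 0.854) over all libraries and 0.04 without old replicate 3. Psme1 had a log2 change of 0.21 ± 0.45 and Psme2 of -0.47 ± 0.44 (SE; limma adjusted p = 0.948 and 0.854). The change of Psme2 was -0.14 without young replicate 3 and -0.72 without old replicate 2.

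**Figure D5:**
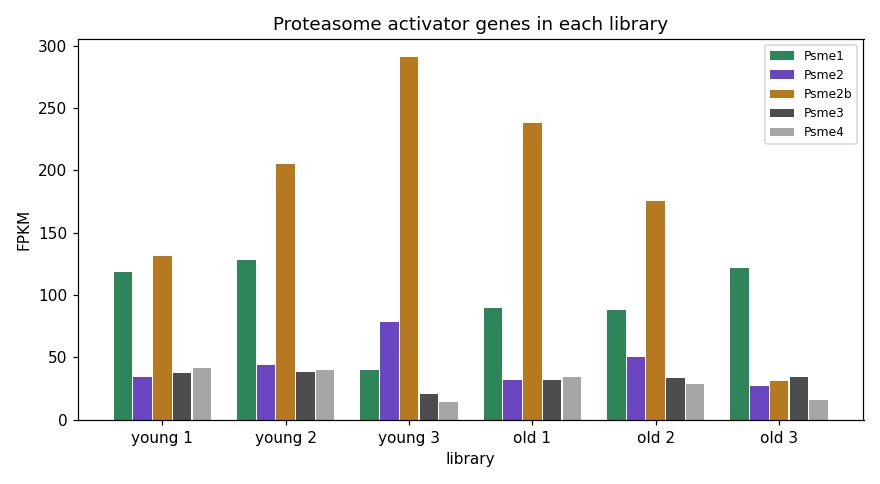
FPKM of the 5 activator genes in each library, bars from 0. Psme2b is the tallest bar in 5 libraries, from 132 to 291 FPKM, and falls to 31.0 in old replicate 3, where Psme1 is tallest at 121.

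Psme3, the nuclear activator, was the steadiest member in old cells, at 32.3, 33.6 and 34.4 FPKM, and was at 37.5, 38.3 and 20.8 in young libraries. Psme4, a large single-chain activator, was at 41.5, 40.0 and 14.6 against 34.5, 29.0 and 16.3. Replicate 3 was lowest for Psme4 in both groups, and the groups overlapped for both genes. The inhibitor gene Psmf1 was low, at 2.97, 0.471 and 9.92 against 6.33, 6.28 and 3.997.

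Assembly chaperones, which leave the particle once it is built, were mostly low. Psmg4 was the exception, at 49.1, 43.3 and 86.8 FPKM (young) against 131, 103 and 78.5 (old). Only young replicate 3 and old replicate 3 crossed. With means of 59.7 ± 23.6 and 104 ± 26.2 (SD, n = 3), its log2 change was 0.83 ± 0.38 (SE; limma unadjusted p = 0.0541, adjusted p = 0.839), the second smallest p of the members. Without young replicate 3 the change was 1.13 (limma unadjusted p = 0.0111, adjusted p = 0.670), and without young replicate 2 it was 0.63 (limma unadjusted p = 0.161). In the former fit 649 of 10709 genes and 2 of 47 members had an unadjusted limma p under 0.05.

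The other core chaperones stayed below 14 FPKM save for 1 value. Psmg1 was at 5.35, 2.62 and 44.0 (young) against 9.15, 3.33 and 7.01 (old), so its higher young mean came from young replicate 3. Psmg2 was at 7.30, 13.2 and 4.84 against 7.32, 12.1 and 11.1. Psmg3 was at 2.01, 0 and 0.893 against 0, 0.865 and 0.0933.

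The 3 cap chaperones, with means of 3.53 to 5.41 FPKM over the 6 libraries, were all listed at 0 in young replicate 3. Only 8934 of the 13642 genes in the table were above 0 in that library, the fewest of any. Psmd5 was at 4.93, 4.50 and 0 FPKM (young) against 6.48, 9.42 and 7.12 (old), so every old value was higher. Psmd9 was at 2.13, 3.97 and 0 against 3.81, 2.15 and 9.15. For Psmd10, an X-linked gene, the values were 7.38, 0 and 0 against 5.14, 12.6 and 1.89, and the labels gave each young library as female and each old one as male. Their log2 changes of 1.43, 1.10 and 1.62 had limma adjusted p between 0.848 and 0.854. Without young replicate 3 the change of Psmd5 was 0.59. Summed, they gave 14.4, 8.47 and 0 against 15.4, 24.2 and 18.2 FPKM.

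Genes that work with the proteasome without a Psm symbol were examined as 6 lists, and limma called 0 members of any. Over all tested genes, 61.3% had a positive log2 change and the median was 0.23. Every old value was above every young value in 8.78% of them, and 4.66% had an unadjusted limma p under 0.05 with old higher. Genes named from the lists were mostly those of smallest p, so they do not stand for their lists. At an unadjusted limma p under 0.05 were 1 of 12 partners, 1 of 17 regulators and 0 of 19 ubiquitin and shuttle genes. For the others it was 1 of 15 interferon pathway genes, 0 of 11 peptide loading genes and 1 of 9 peptidases. Over all tested genes it was 5.91% in either direction. Of 12 tested partners 9 had a positive and 3 a negative log2 change, with a median of 0.43 (0.10 without old replicate 3). Usp14, a deubiquitinase bound to the cap, was at 0.0137, 0.344 and 0.918 FPKM (young) against 3.46, 7.73 and 4.15 (old). Old values were all higher, with a log2 change of 2.09 ± 0.82 (SE; limma unadjusted p = 0.0286, adjusted p = 0.829). The young values of Usp14 were all under 1 FPKM, near the floor, in libraries with fewer genes above 0. AI314180, which encodes the scaffold ECPAS, was at 30.0, 17.8 and 15.5 against 38.8, 32.3 and 32.6, also without overlap. Zfand5 was at 7.03, 12.5 and 4.56 against 12.6, 15.4 and 17.1.

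Regulators of proteasome genes split 13 positive and 4 negative, with a median of 0.23. Nfe2l1, the factor named above, was at 53.1, 16.7 and 61.4 FPKM (young) against 41.2, 46.6 and 31.0 (old), and Ngly1, the enzyme that strips its glycans, was at 35.7, 10.9 and 41.7 against 12.1, 13.1 and 16.1. Both overlapped. Foxo1 was at 3.08, 4.36 and 2.74 against 20.6, 14.4 and 9.44, with each old value higher (log2 change 1.80 ± 0.68, SE; limma unadjusted p = 0.0235, adjusted p = 0.793).

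Ubiquitin and shuttle genes split 13 and 6, with a median of 0.27. Ubb, a polyubiquitin gene, was far above the proteasome genes, at 2733, 3443 and 3040 FPKM (young) against 3340, 3795 and 2649 (old). Ube2k, a conjugating enzyme gene, was at 2.19, 5.10 and 2.83 against 13.3, 9.14 and 9.03 (limma unadjusted p = 0.0721, adjusted p = 0.839). Of the peptidases that trim proteasome products 5 were positive and 4 negative, and Lap3 was at 2.95, 7.04 and 4.49 against 15.2, 17.5 and 20.6 (log2 change 1.74 ± 0.62, SE; limma unadjusted p = 0.0181, adjusted p = 0.758).

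Interferon pathway genes that control the immune subunits were split 8 and 7, with a median of 0.03. Irf1 was at 24.0, 49.1 and 25.5 FPKM (young) against 31.3, 27.3 and 14.6 (old), with overlap. Nlrc5, the transactivator of class I genes, was at 22.0, 12.4 and 9.48 against 33.6, 28.0 and 23.0, with every old value higher (log2 change 0.97 ± 0.49, SE; limma unadjusted p = 0.0784, adjusted p = 0.839). Ifnar2, a receptor chain, was at 8.97, 1.25 and 6.89 against 10.1, 21.7 and 43.7 (limma unadjusted p = 0.0300, adjusted p = 0.829).

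Peptide loading genes split 6 and 5, with a median of 0.02. Erap1, which trims peptides in the endoplasmic reticulum, was at 41.1, 6.05 and 4.30 against 28.3, 35.1 and 40.4 FPKM (log2 change 1.599, limma unadjusted p = 0.0563, adjusted p = 0.839). Young replicate 1 was highest of all. Tap1 and Tap2, the peptide transporter genes that neighbour Psmb8 and Psmb9, were at 43.2, 13.1 and 18.7 FPKM and at 9.72, 40.3 and 28.4 in young libraries. In old libraries they were at 20.8, 31.6 and 34.6 and at 20.03, 37.5 and 18.8. Both overlapped between the groups, as did Psmb8 and Psmb9.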

How the data were processed

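Total RNA of sorted plasma cells was sequenced as paired ends of 150 bases. The deposited table holds FPKM values for 6 libraries, made by the authors. The submitters' processing notes name bcl2fastq 2.17, STAR and DESeq2 without roles, and builds GRCm38 and mm10. The counter, annotation and use of strand are not given in the sources used here. Members and gene lists were chosen with earlier results of these data known. Roles follow textbook assignments.

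The test, for genes averaging at least 1 FPKM, was limma 3.58.1 under R 4.3.3 (mean-variance trend, two-sided) on log2(FPKM + 1), which understates changes of low genes. The code was tested on simulated data. Sums, ratios and list medians carry no p. Values printed per library cover the catalytic subunits, activators, chaperones, extremes of each role group, the 4 members of smallest p in each direction, and up to 4 genes per further list. Psma3, Psma5, Psma6, Psma7, Psmb3, Psmd7 and Psmd14, and Nfe2l1, Ubb, Irf1, Tap1 and Tap2, were added after their values were seen. Coordinates and exon overlaps came from GENCODE M21 (GRCm38), which matched 13627 identifiers without version. Copies were sought with blastn 2.17.0 among its transcripts (at least 95% identity over 200 bases). Approximate reads assume merged exon lengths and that a smallest step is 1 read. They carry no error estimate and do not address variation other than counting. Alternatives were other pseudocounts, filters, scalings, moderation, a replicate block and leaving out each library. Python 3.11.15, numpy 2.4.6 and pandas 2.3.3 handled tables. Results that need an item withheld for evaluation are not reported here.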

Additional observations from a re-analysis of the deposited data

How the results depend on the processing

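Limma called 0 members under each of 17 alternatives. Over all genes it called 1 under quantile normalization, 1 with robust moderation, and 0 to 7 without single libraries, most without young replicate 3. The median of members was lowest without old replicate 2, at 0.11, and highest at 0.37, without old replicate 1. The ubiquitin and shuttle median was -0.10 among genes averaging 20 FPKM or more, and the regulator median was -0.0109 after quantile normalization. The replicate block gave a member median of 0.29, 0 called members and 571 genes at an unadjusted p under 0.05 against 632. Deviations of same-numbered libraries correlated across genes at -0.034, 0.020 and -0.0041. With 3 libraries per group, these values cannot show whether same-numbered libraries shared a preparation. Without single libraries the list medians ranged from 0.10 to 0.88 (partners), 0.06 to 0.40 (regulators), 0.16 to 0.40 (ubiquitin and shuttle), -0.12 to 0.18 (interferon), -0.12 to 0.10 (peptide loading) and -0.06 to 0.32 (peptidases). Role sums as log2 of the ratio of means ranged from -0.79 to 0.66 (constitutive catalytic) and -0.03 to 0.58 (immune catalytic). Pair ratios, old minus young, ranged from 1.18 to 2.64 (Psmb8 to Psmb5), -0.51 to 0.36 (Psmb9 to Psmb6) and -2.08 to -0.70 (Psmb10 to Psmb7). The sum of the cap chaperones had no log2 ratio, being 0 in young replicate 3.

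Of 47 members, 25 kept their sign under every alternative and 22 changed it at least once, with the cause not tested. Without single libraries the log2 change ran from -0.29 to 0.22 for Psma1, -0.13 to 0.83 for Psma6, -0.0531 to 0.78 for Psmb6, -0.21 to 1.05 for Psmb9, -0.0648 to 0.65 for Psmc1, -0.67 to 0.24 for Psmc3, -0.34 to 0.25 for Psmc3ip, -0.26 to 0.80 for Psmc5, -0.36 to 1.01 for Psmc6, -0.63 to 0.18 for Psmd11, -0.11 to 0.69 for Psmd12, -0.95 to 0.20 for Psmd13, -1.10 to 0.36 for Psmd14, -0.22 to 0.42 for Psmd4, -0.77 to 0.42 for Psmd6, -0.40 to 0.21 for Psmd8, -0.32 to 0.50 for Psme1, -1.41 to 0.0382 for Psme2b, -0.18 to 0.25 for Psme3, -0.66 to 0.12 for Psme4, -0.0336 to 1.41 for Psmf1 and -1.26 to 0.56 for Psmg1. The other sign changes were 0.00581 for Psmd6 with pseudocount 0.1, -0.0508 for Psma1 with median-ratio scaling, -0.0531 for Psmd4 with median-ratio scaling. Members that kept their sign also moved, over all alternatives from -0.78 to -0.16 for Psma3, -0.55 to -0.24 for Psma7, 0.44 to 2.16 for Psmd9 and 0.66 to 3.60 for Psmd10.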
